A study of Mus musculus with 4 samples.

Results

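The genes described here encode the plasma proteins that the early liver and the visceral endoderm of the yolk sac make, together with the apolipoproteins, the endocytic receptor system of the yolk sac and transcription factors of the early liver. The list of 34 genes was given by function, but with earlier results of these data known. Counts of calls among them therefore describe these genes and are no independent test of the list. Every probe set with a gene of the list as its only listed gene was taken. This gave 60 of 45037 tested probe sets, for 33 genes. For transferrin (Trf), 0 probe sets were left, since its only listed one also names another gene, and it was not analysed here. Of the 33 genes, 20 had 1 probe set and 13 had several.

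The visceral endoderm of the yolk sac is the first tissue of the mouse embryo to secrete albumin-type carriers, apolipoproteins and clotting proteins into the circulation. It also takes up maternal proteins through the receptors megalin and cubilin. The liver bud then arises from foregut endoderm beside the heart and takes over the secretion of plasma proteins. Hepatic nuclear factors such as HNF4A, FOXA proteins and HNF1 bind the promoters of many of these genes in both tissues.

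RNA of whole mouse embryos at embryonic day 9.5 was measured on 4 Affymetrix arrays. One pool held RNA of 6 embryos lacking Cop1, the gene of a ubiquitin ligase. The other held RNA of 6 control embryos, which were +/+ or +/- for Cop1, although the sample titles call them wild-type. Each pool was divided into 2 portions, and each portion went onto 1 array, so that the 2 arrays of a genotype share their embryos. The p-values below therefore measure only the spread between portions of a pool, with no replicate check of the genotype. The labels give neither the strain nor how Cop1 was deleted, nor whether any yolk sac stayed on the dissected embryos. In whole embryos, fewer cells of a type and less RNA per cell cannot be told apart.

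The values are log2 expression after RMA, and differences are the null minus the control pool. A probe set was called when its adjusted p was under 0.05 in limma and its fold was at least 1.5. The array medians lay between 6.03 and 6.10. The Cop1 probe set fell by 1.58 (SE 0.08, adjusted p = 0.000728), although whether it lies in the deleted part is not known here. Its values were 11.35 and 11.26 in the control portions and 9.67 and 9.77 in the null portions, so signal remained in the null pool. Markers of heart, neural tube and somite all read above the dimmest 40% of probe sets except Tbx6. Of these 15 marker genes 4 were called, Pax1 (-1.59), Myf5 (-0.72), Tcf15 (-0.64) and Nes (-0.64), all lower in the null pool, beside 8.06% falls among 18193 genes. A repeated quantile normalization put Tcf15 under the fold limit (-0.58), as was Nes without control replicate 1 (-0.58), without null replicate 2 (-0.57) and by the median over its probe sets (-0.15).

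Secreted plasma protein genes were lower in the null pool, most of all albumin, the corticosteroid carrier Serpina6 and transthyretin. Of 60 member probe sets, 15 fell and 4 rose, while 6.96% of all tested probe sets fell and 6.76% rose. Counted once per gene, by the probe set with the highest mean, 10 of 33 genes fell and 2 rose, beside 8.06% falls and 3.58% rises among 18193 genes. Of the 10 falls, 9 were among the 15 secreted plasma protein genes, and 1 was among 8 lipoprotein genes. None of the 15 secreted genes rose in limma, and 0 were higher at an unadjusted p under 0.05, a limit at which the share of all genes was not counted. The median difference was -0.77 over the secreted genes, 0.07 over the lipoprotein genes, 0.28 over the 4 endocytic genes and -0.11 over the 5 hepatic factors, beside -0.02 over all genes. By the adjusted p alone, 24 member probe sets were lower and 9 higher, beside 17.6% and 15.1% of all probe sets, as were 15 and 6 of the 33 genes, beside 21.8% lower and 2192 of 18193 higher among all genes. With each array centred on the poly-A spikes, which moved the median of all genes by -0.26, 27 member probe sets fell and 3 rose, while 15.9% of all probe sets fell and 4.11% rose. Among all genes 18.9% then fell and 1.86% rose. The group medians were then -1.03, -0.18, 0.02 and -0.37 in the same order, so that of the lipoprotein genes turned below 0.

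**Figure D1:**
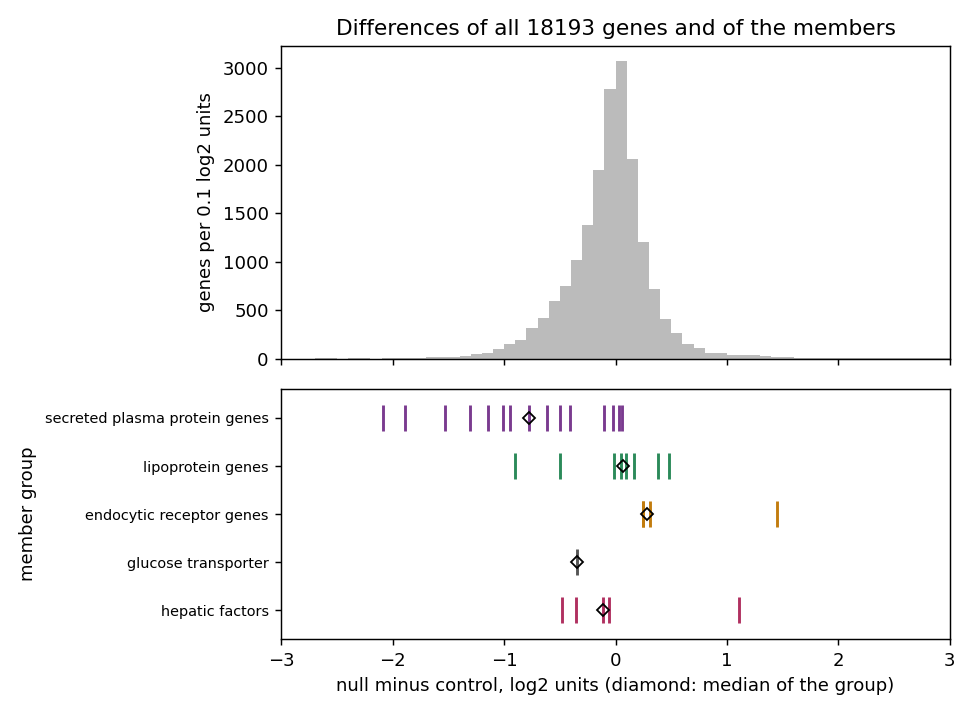
Histogram of the null minus control difference (log2 units) of 18193 genes, with the members below as ticks, 1 per gene, by group, and the group median as a diamond. Most secreted plasma protein genes lie left of the bulk, with a median of -0.77, and the endocytic genes lie right of 0, with a median of 0.28 (0.02 with poly-A spike centring, where 2 of the 4 are above 0).

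Among the neighbours on the chromosome, the pair Alb and Afp and the fibrinogen genes Fgg, Fga and Fgb, each set with 0 other protein-coding genes between its members in RefSeq, fell together. Their upstream sequence is shown for the genes that held letters of HNF1, FOXA and C/EBP sites together. Each is the 250 bases before the start site in RefSeq (build GRCm38.p6), 5′ to 3′ on the gene's strand. Capitals mark the letters of an HNF1 half-site (GTTAAT or ATTAAC), a FOXA site (TGTTTNC or GNAAACA) and a C/EBP site (TTGCNNAA or TTNNGCAA), and no marked stretches overlap. A gene with several start sites in the table counts where any of its 250-base windows holds the letters.
Alb, chr5:90460620-90460869, + strand: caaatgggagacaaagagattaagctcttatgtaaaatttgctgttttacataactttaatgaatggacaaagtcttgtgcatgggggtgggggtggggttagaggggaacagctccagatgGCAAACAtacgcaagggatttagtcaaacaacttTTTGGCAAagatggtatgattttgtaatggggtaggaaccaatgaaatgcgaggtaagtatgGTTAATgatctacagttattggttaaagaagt
Afp, chr5:90490464-90490713, + strand: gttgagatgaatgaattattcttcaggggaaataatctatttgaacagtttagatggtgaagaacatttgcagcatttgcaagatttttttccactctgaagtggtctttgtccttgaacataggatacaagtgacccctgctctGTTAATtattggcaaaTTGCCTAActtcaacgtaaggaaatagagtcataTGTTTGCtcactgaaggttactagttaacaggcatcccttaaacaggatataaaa
Fga, chr3:83025903-83026152, + strand: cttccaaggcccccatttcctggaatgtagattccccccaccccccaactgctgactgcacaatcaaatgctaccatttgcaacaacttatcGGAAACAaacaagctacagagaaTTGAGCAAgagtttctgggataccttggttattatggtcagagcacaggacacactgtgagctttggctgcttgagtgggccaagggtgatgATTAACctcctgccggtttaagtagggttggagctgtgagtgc
Fgb, chr3:83049864-83050113, - strand: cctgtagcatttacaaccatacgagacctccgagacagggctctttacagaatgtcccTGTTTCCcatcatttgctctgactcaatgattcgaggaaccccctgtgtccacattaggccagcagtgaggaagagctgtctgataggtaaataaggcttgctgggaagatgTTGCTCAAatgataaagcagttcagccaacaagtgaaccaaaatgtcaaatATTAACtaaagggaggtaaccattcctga

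The half-site began 32 bases before the start in Alb, 105 in Afp, 43 in Fga and 29 in Fgb. It was present in 4 of the 8 falling members that the promoter table holds, in 1 of 4 with a rise (Dab2), in 3 of 19 without a call, and in 7.49% of 27025 genes in the table. In these promoter counts a member falls or rises where any of its probe sets was called. Dab2 and Lrp2 thus count as rises, though their probe sets with the highest mean were not called. FOXA letters were present in 6 of 8 falling members, 0 of 4 with a rise, 8 of 19 without a call and 19.9% of all genes. For C/EBP letters the counts were 5 of 8, 2 of 4 and 3 of 19, beside 10.8% of all genes. A longer HNF4 motif (CAAAGTCCA or TGGACTTTG) was in 0 of 31 member promoters and in 0.451% of all. The TATA box letters (TATAAA or TTTATA), also searched, were in 2 of 8 falling members, 0 of 4 with a rise, 7 of 19 without a call and 14.3% of all genes. These are matches of letters, not measured binding, and the windows of Fgg, Ambp, Apoa2 and Serpinc1 held no half-site. Of the falling genes, Ttr and Serpina6 were not in the promoter table.

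Of the 5 carrier genes, Alb, Serpina6 and Ttr had the 3 largest falls among the members, and Afp fell less. Albumin (Alb, 1425260_at) read 8.07 and 8.29 in the control portions against 5.84 and 6.34 in the null portions. It thus fell by 2.09 log2 units (SE 0.19), or 4.25-fold, with an adjusted p of 0.00223. The null portions lay further apart than the control portions, but far below both of them. Serpina6 (1448506_at), the gene of the corticosteroid-binding globulin, read 6.79 and 6.84 in the control portions and 4.89 and 4.96 in the null portions, 3.70-fold lower. Its portions lay close together in both pools, and both null values were below the level that marks the dimmest 40% of probe sets, 5.39.

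Transthyretin (Ttr), the carrier of thyroid hormone and of the retinol-binding protein, was lower by all 4 of its probe sets. The probe set with the highest mean (1454608_x_at) read 8.90 and 9.04 in the control portions and 7.46 and 7.41 in the null portions. The differences were -1.53 (SE 0.08), -1.60, -1.57 and -0.97, with adjusted p-values between 0.000633 and 0.00211. By contrast Rbp4, the retinol-binding protein that travels with transthyretin, read 7.98 and 7.99 against 7.83 and 7.92, a difference of -0.11 (adjusted p = 0.295). The pools did not overlap for Rbp4, yet the difference was within 2 of its standard errors (SE 0.07).

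Alpha-fetoprotein (Afp), the fetal relative of albumin, read, on its brightest probe set (1416645_a_at), 11.82 and 11.86 in the control portions and 10.84 and 10.81 in the null portions. That is 2.02-fold lower (adjusted p = 0.00106), and 2 other probe sets fell by 1.14 and 0.85. The remaining 2 lay among the dimmest 40% of probe sets and were not called, at -0.09 and -0.56. Albumin's difference of -2.09 exceeded that of every Afp probe set.

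**Figure D2:**
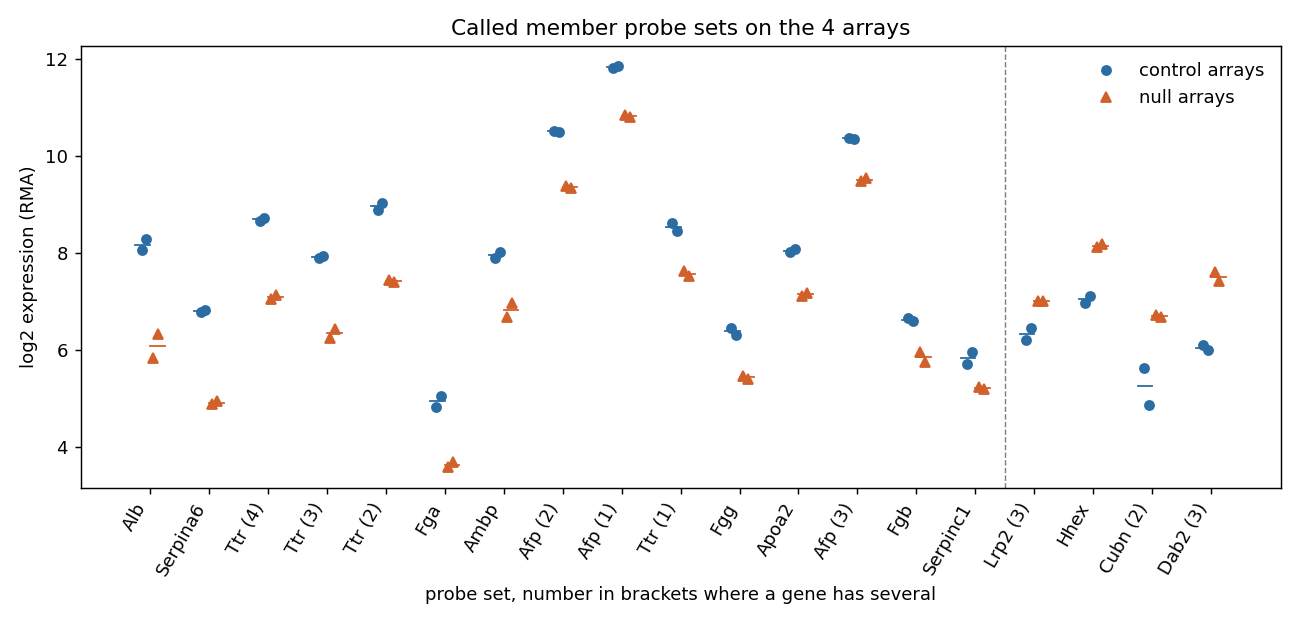
Log2 expression of the 15 member probe sets that fell (left of the dashed line) and the 4 that rose, on the 2 control arrays (circles) and the 2 null arrays (triangles), with group means as lines. In none do the pools overlap, but the probe sets were picked by their calls, so this adds no evidence. The control portions of Cubn lie furthest apart, at 5.63 and 4.88.

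The fibrinogen subunits, whose products assemble into one clotting protein, all fell. Fga read 4.84 and 5.06 in the control portions and 3.59 and 3.70 in the null portions, a difference of -1.31 (SE 0.10). Fgg read 6.46 and 6.32 against 5.47 and 5.41, a difference of -0.95 (SE 0.08). Fgb read 6.66 and 6.60 against 5.96 and 5.75, a difference of -0.77 (SE 0.09). All 3 passed the test (adjusted p between 0.00156 and 0.0046), although Fga lay among the dimmest 40% of probe sets, where background makes up much of a value.

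The clotting proteases did not pass both limits. F2, the gene of prothrombin, read 5.82 and 5.84 against 5.32 and 5.52, a difference of -0.41 (SE 0.09) that passed the adjusted p (0.0247) but lay under the fold limit. The 3 probe sets of F10, the gene of the protease that activates prothrombin, lay between -0.22 and 0.03 with no call.

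Inhibitors of proteases divided. Ambp (1416649_at), the precursor of alpha-1-microglobulin and the protease inhibitor bikunin, read 7.91 and 8.02 in the control portions and 6.68 and 6.97 in the null portions, 2.21-fold lower (adjusted p = 0.00293). Serpinc1, the gene of antithrombin, read 5.72 and 5.96 against 5.24 and 5.20, a difference of -0.62 (SE 0.10, adjusted p = 0.0108). This small fall lay under the fold limit once control replicate 2 was left out (-0.49). Its adjusted p was 0.0613 with null replicate 1 left out and 0.0744 with null replicate 2 left out. Serpinf2, the plasmin inhibitor gene, lay just under the fold limit at -0.49 (SE 0.08). The fetuin genes Ahsg and Fetub, which lie side by side on their chromosome, were among the dimmest 40% with overlapping pools, at -0.02 and 0.06.

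Among the lipoprotein genes, Apoa2 alone was called. Apoa2, which encodes the second protein of high-density lipoprotein, read 8.03 and 8.08 in the control portions and 7.12 and 7.18 in the null portions, a difference of -0.90 (SE 0.07), or 1.87-fold, with an adjusted p of 0.00143. Apoa1, which encodes the main protein of the same particle, did not follow it, as its 4 probe sets lay between -0.10 and 0.13. The brightest of them (1419233_x_at) read 7.12 and 7.15 against 7.04 and 7.21, so the pools overlapped.

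The other apolipoprotein genes went both ways by less than 1.5-fold. Both probe sets of Apom, a carrier of sphingosine-1-phosphate, were lower, at -0.54 and -0.50 (adjusted p = 0.0171 and 0.00912). Apoe, a ligand of lipoprotein receptors that many cell types make, read 8.90 and 8.98 against 9.41 and 9.42, a difference of 0.48 (SE 0.07, adjusted p = 0.00658). Apoa4 was higher by both probe sets, at 0.38 and 0.34 (adjusted p = 0.0272 and 0.0184). With poly-A spike centring Apoe (0.22) and Apoa4 (0.13 and 0.08) no longer passed the adjusted p in limma. The probe sets of Apoa4, Apob (0.34 and 0.05) and Apoc2 (0.09) lay among the dimmest 40%. Mttp, whose product loads lipid onto apolipoprotein B, gave 0.16 and -0.06 with no call. With poly-A spike centring Apob's brighter probe set, Apoc2 and Mttp's brighter probe set turned below 0, each without a call.

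**Figure D3:**
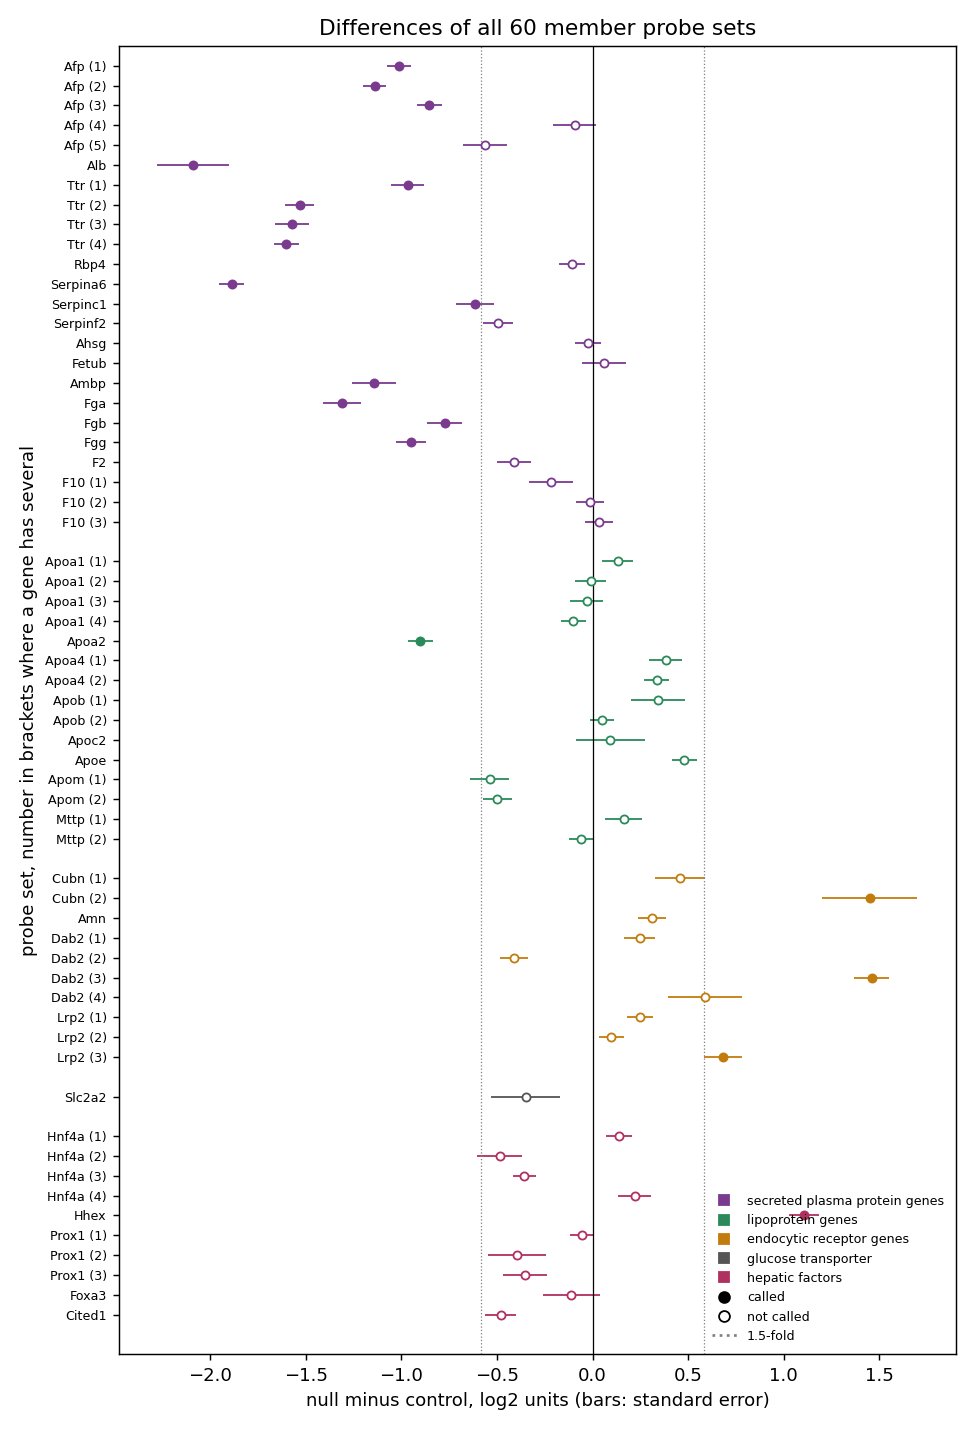
Null minus control difference in log2 units, with its standard error, of all 60 member probe sets by group. Filled points were called and open points were not, and dotted lines mark 1.5-fold. Among secreted plasma protein genes 14 of 24 probe sets are filled, all below 0, and among endocytic receptor genes 3 of 10, all above 0. Over all tested probe sets 6.96% fell and 6.76% rose.

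The endocytic receptor genes lay on the other side, with 9 of 10 probe sets above 0 (6 of 10 with poly-A spike centring). Of the 10, 3 were called as rises, beside 6.76% rises among all tested probe sets, whose median difference was 0.007. Cubn, the gene of cubilin, read 5.63 and 4.88 in the control portions and 6.73 and 6.68 in the null portions on its brighter probe set (1452270_s_at). This 2.73-fold rise (SE 0.25 log2 units, adjusted p = 0.0126) rested on control portions that were more than 1.5-fold apart, the only such case among the 60 member probe sets, and its adjusted p was 0.081 without null replicate 1 and 0.0802 without null replicate 2. The dimmer probe set of Cubn read 4.61 and 4.30 against 4.82 and 5.01 (0.46, adjusted p = 0.056).

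Lrp2, the gene of megalin, rose on 1 of 3 probe sets (1452320_at), from 6.22 and 6.47 to 7.02 on both null arrays, a difference of 0.68 (SE 0.10, adjusted p = 0.00788). The probe set with the highest mean read 6.95 and 7.02 against 7.22 and 7.24, a difference of 0.25 without a call. The rise of 1452320_at missed the limits with poly-A spike centring (0.42) and with control replicate 1 left out (0.56). With null replicate 1 left out its adjusted p was 0.0556, and with null replicate 2 left out 0.0593. Amn, whose product carries cubilin to the cell surface, read 4.54 and 4.53 against 4.78 and 4.91, a difference of 0.31 (adjusted p = 0.0338) among the dimmest 40%.

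The probe sets of Dab2, an adaptor that links these receptors to clathrin, disagreed. The one called (1429693_at) read 6.10 and 6.01 in the control portions and 7.61 and 7.42 in the null portions, 2.75-fold higher (adjusted p = 0.00105). The brightest (1420498_a_at) read 9.35 and 9.27 against 9.63 and 9.48, a difference of 0.25 with no call. Of the other two, 1 was lower, at -0.41 (adjusted p = 0.0139), and 1 was higher, at 0.59 (adjusted p = 0.0801). Which transcripts of Dab2 these probe sets match is not given in the sources used here.

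Of the hepatic factors, Hhex alone was called. Hhex, a homeobox gene needed for the liver bud and also active in endothelial cells, read 6.98 and 7.13 in the control portions and 8.14 and 8.19 in the null portions, 2.15-fold higher (SE 0.08 log2 units, adjusted p = 0.00133). This rise kept its call when any single array was left out and with poly-A spike centring. A list of 10 endothelial markers was added after the data were seen. Of these, 4 rose, Kdr by 0.74, Pecam1 by 0.72, Erg by 0.64 and Esam by 0.63, beside 3.58% rises among all genes. The 10 markers had a median of 0.42, with 9 higher and 1 lower, Cldn5 at -0.14. Their summed level, as log2 of the sum, was 11.56 and 11.52 in the control portions and 11.96 and 11.97 in the null portions, and their part in the Hhex result was not tested. With poly-A spike centring none of these 4 markers was called, at 0.38 to 0.49. The adjusted p of Erg was 0.0507 and 0.0505 when control replicate 1 or control replicate 2 was left out, and its difference was under the fold limit (0.54) when null replicate 1 was.

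The other factors showed no call. The 4 probe sets of Hnf4a, a nuclear receptor that drives many of the plasma protein genes, lay between -0.49 and 0.22 and differed in sign. Its brightest (1427001_s_at) read 6.77 and 6.76 against 6.41 on both null arrays, a difference of -0.36 (SE 0.06, adjusted p = 0.0122), whereas the median over its probe sets gave 0.18. Cited1, a transcriptional co-activator of the visceral endoderm, read 8.72 and 8.79 against 8.20 and 8.35, a difference of -0.48 (SE 0.08, adjusted p = 0.0124). Prox1, needed for hepatoblasts to leave the liver bud, gave -0.40, -0.35 and -0.06, and the hepatic factor gene Foxa3 gave -0.11, all among the dimmest 40%. The glucose transporter gene Slc2a2, also in that range, read 3.39 and 3.81 against 3.41 and 3.09 with overlapping pools.

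Other genes of the same tissues were read in the same way. The counts on this and the next lists stand beside 8.06% falls and 3.58% rises among all 18193 genes. Of 31 measured genes of other secreted liver proteins, 2 fell, Itih2 (-0.87, adjusted p = 0.00276) and Plg (-0.83). On the same list 2 rose, Igfbp1 (0.84) and Cp (0.67), and the median was -0.09. Only 17 of the 31 read above the dimmest 40% of probe sets, and the 2 falls and 2 rises were all among these. The median also covers the dimmer genes, where background makes up much of a value. Itih2 encodes a chain that bikunin, the product of Ambp, is joined to. Its relatives on the list, Itih1 (-0.11), Itih3 (-0.10) and Itih4 (0.21), were not called. The fall of Plg, the plasminogen gene, was lost without control replicate 2 (-0.56) or either null array, and with the replicate number as a block (adjusted p = 0.0619). Igfbp1 and Cp lay under the fold limit with poly-A spike centring (0.58 and 0.42).

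Of 15 other liver and endoderm factors, 1 rose, Gata6 (0.75), with a median of 0.02. Cebpa was at -0.28 and Foxa2 at -0.05, both without a call. Of 17 other endocytic and lipoprotein receptor genes, 2 rose, Vldlr (2.40) and the scavenger receptor gene Stab1 (0.74), with a median of 0.13. Gata6 and Stab1 also lost their calls with poly-A spike centring (both 0.49).

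Markers of the source tissues were read beside these results and beside the same shares over all genes (8.06% falls and 3.58% rises). Of 14 visceral yolk sac endoderm markers, 2 rose, Sox17 (1.23) and S100g (1.11), and 0 fell, with a median of 0.07 and a summed level (log2 of the sum) of 9.89 and 9.88 in the control portions and 10.14 and 10.07 in the null portions. Without Sox17, which endothelium also expresses, the sum was 9.68 and 9.64 against 9.66 and 9.55, with overlapping pools, a sum added after the data were seen. Only 6 of the 14 read above the dimmest 40%. S100g, at 4.04 and 3.94 in the control portions and 5.00 and 5.20 in the null portions, was not among these. Of 13 hepatoblast and hepatic bud markers, 3 rose, the keratin genes Krt19 (2.11), Krt18 (0.87) and Krt8 (0.78), which other epithelia also express, and 0 fell, with a median of 0.11. Krt8 lay under the fold limit with poly-A spike centring (0.52). At an unadjusted p under 0.05 in limma, 4 of the 14 yolk sac markers were lower and 4 higher, as were 2 and 3 of the 13 hepatoblast markers. The share of all genes at that unadjusted limit was not counted. By the adjusted p alone, 1 yolk sac marker was lower and 3 were higher, as were 0 and 3 hepatoblast markers. Among all genes, 21.8% were then lower and 2192 of 18193 higher. Dlk1, an early hepatoblast marker that other embryonic tissues also make, read 11.91 and 11.83 against 11.94 and 11.88.

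Gut endoderm gave 0 calls among 9 markers in limma, where 1 was lower and 1 higher at an unadjusted p under 0.05 and 1 passed the adjusted p alone, Shh at -0.40 (the next was Pdx1 at 0.24). Primitive erythroid markers gave 1 fall of 9, Klf1 at -0.79, and trophoblast markers 1 rise of 5, Ascl2 at 0.64, which was lost without control replicate 2 or either null array and under both other scalings. The heart markers gave 0 calls of 5 in limma, where 2 were higher and 0 lower at an unadjusted p under 0.05. The adjusted p alone was passed by 1, Nkx2-5 at 0.36 (the next was Actc1 at 0.16). For these lists too, the share of all genes at the unadjusted limit was not counted. The part of any of these tissues in the differences of the plasma protein genes was not tested.

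**Figure D4:**
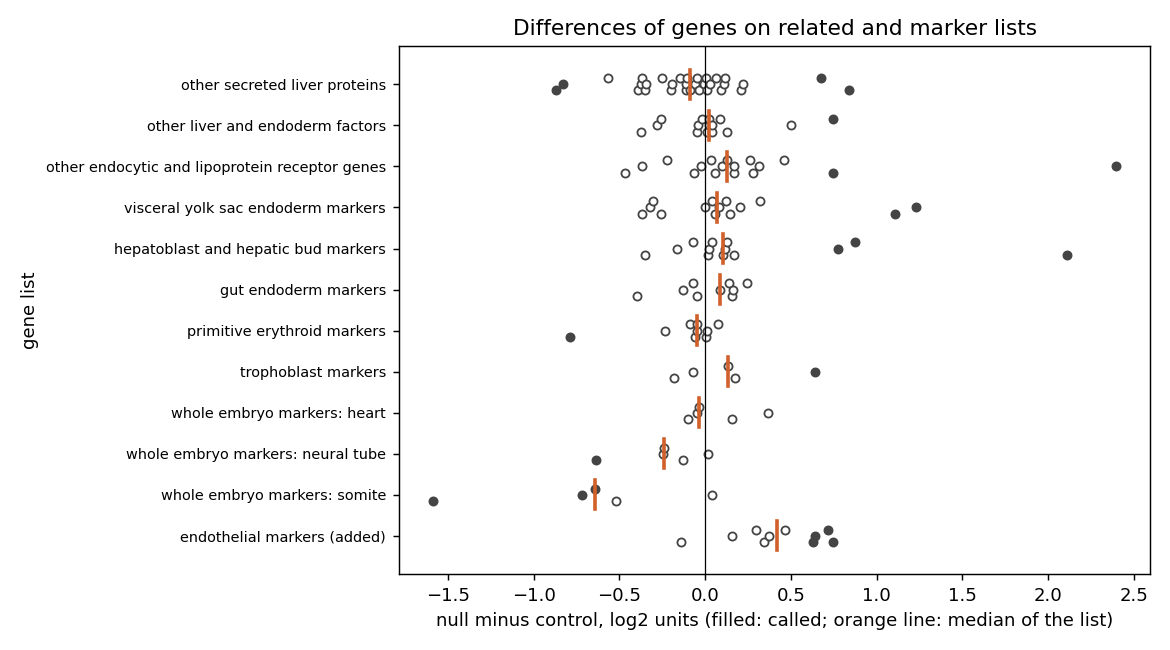
Null minus control difference in log2 units of the genes on the related lists and the marker lists, 1 point per gene, filled where called, with the median of each list as an orange line. The list of other secreted liver proteins has its median at -0.09 and the visceral yolk sac endoderm list at 0.07. On these lists 17 of 31 and 6 of 14 genes read above the dimmest 40% of probe sets.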

How the data were processed

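Per the submitters' processing notes, the authors used affy and RMA to make the deposited log2 values of the 4 arrays. Their versions and the probe mapping are not stated in the sources used. RMA gives all arrays 1 distribution, so a change of total RNA leaves no trace. The 64 control probe sets were left out. Gene names come from the annotation of the platform, and probe sets with several genes (932) or not listed (9160) were left unnamed. The test was that of limma 3.58.1 (R 4.3.3, lmFit, eBayes, Benjamini-Hochberg over 45037 probe sets). It was checked on simulated data for this comparison (45037 probe sets, 50 changed at each fold), under 2 models of the noise. With limma's moderated variances it called 29 of 50 at 1.5-fold and 50 of 50 at 2-, 3- and 4-fold. With raw variances it called 1, 19, 36 and 40 of 50, and the false calls were 5 and 0 in the respective models. The raw model was tried first, failed the minimum set for it (45 of 50 at 3-fold) and was replaced for that reason, so the minimum was met by the moderated model alone. Under the raw model changes at all 4 folds were missed in part. The moderated variances are those that the test itself uses, which favours recovery under that model. Both models hold only the spread between portions of a pool, so neither bears on the spread between embryos. The deposited log2 values were not rescaled. A gene stands at its probe set with the highest mean. For arrays, their number limits the precision. Promoter sequences come from a table of RefSeq promoters (GRCm38.p6), in which 31 of the 34 members were matched. Members and lists were chosen with earlier results of these data known. All members are accounted for; of other lists, up to 4 called genes with the largest difference are named, or the largest 2 where none was called, and Cop1. Dlk1, Cebpa, Foxa2, Tbx6, Cldn5, Itih1, Itih3 and Itih4 were named after their values were seen.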

Additional observations from a re-analysis of the deposited data

How the results depend on the processing

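The falls of secreted plasma protein genes numbered 8 to 11 under all alternatives tried, against 9 as reported. With poly-A spike centring 27 member probe sets and 16 member genes fell, among them 2 lipoprotein genes and 2 hepatic factors, while 3441 of all 18193 genes fell, against 1467 as reported. The spikes had medians of 7.23 and 7.49 in the control pool against 7.52 and 7.71 in the null pool, so the portions of 1 pool differed as much as the pools. This scaling also took the share of rises among all called genes from 30.8% to 8.97%. Without the fold limit, 24 member probe sets fell and 9 rose. For genes, that gave 6 rises in all, 2 falls and 2 rises of lipoprotein genes, 2 falls of hepatic factors and 3 rises of endocytic genes, and the median over a gene's probe sets gave 2 endocytic rises. Leaving out 1 array gave 2 to 5 rising member probe sets, 1 to 2 rising genes and 0 to 1 rising endocytic genes, the low values coming without null replicate 1 or null replicate 2.

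Several small differences changed sign without a call. With poly-A spike centring these were Fetub (-0.20), F10 1449305_at (-0.22), Apoa1 1419232_a_at (-0.12), Apob 1457554_at (-0.21), Apoc2 (-0.16), Mttp 1419399_at (-0.094), Dab2 1420498_a_at (-0.0091), Lrp2 1427133_s_at (-0.0086) and 1445901_at (-0.16), Hnf4a 1421983_s_at (-0.12) and 1450447_at (-0.035), Pdx1 (-0.014) and Actc1 (-0.098). Quantile normalization applied once more turned F10 1449305_at (-0.040), Apoa1 1419233_x_at (0.0086) and Apob 1457554_at (-0.012). The median over probe sets turned F10 (-0.12) and Hnf4a (0.18). With 1 array left out, the values ranged from -0.21 to 0.022 for Afp 1436880_at, from -0.066 to 0.018 for Ahsg, from -0.064 to 0.18 for Fetub, from -0.076 to 0.050 for F10 1418993_s_at and from -0.026 to 0.094 for F10 1449305_at. They ranged from -0.098 to 0.076 for Apoa1 1419233_x_at, from -0.11 to 0.043 for Apoa1 1438840_x_at, from -0.11 to 0.30 for Apoc2 and from -0.27 to 0.051 for Foxa3. The cause of these changes was not tested.

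With the replicate number as a block, 15 member probe sets fell and 5 rose (Dab2 1430604_a_at was added, adjusted p = 0.0307), and 10 genes fell and 2 rose. Among all 18193 genes, 1455 then fell and 647 rose. The labels do not say that a number pairs portions, and deviations of portion 1 correlated at 0.06 between the pools over all probe sets.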
